A study of Bubalus bubalis with 2 samples.

Results

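Matricellular and elastic-fibre glycoproteins are secreted proteins that tune how cells hold on to the matrix or that help to build its elastic fibres. The 10 genes described here were SPARC, THBS1, THBS2, TNC, POSTN, FN1, FBLN1, FBLN2, FBLN5 and ECM1, each taken as the 1 row with that gene name among the 20905 genes of the deposited table. Cell-free total RNA of saliva from Murrah water buffalo (Bubalus bubalis) was sequenced in 2 libraries, 1 labelled estrus, the stage of sexual receptivity, and 1 labelled diestrus, the luteal stage. No treatment was applied to either, and the sources used here give neither the animals' ages nor whether a library came from 1 animal or a pool. The study asked which salivary transcripts differ between these stages. With 1 library per stage there is no spread between animals and no test of the stages, so every difference below is a description of these libraries without a replicate check.

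Matricellular proteins act mainly as signals rather than as structural scaffolds, and they are best known from tissue that is being remodelled, such as healing wounds. Fibronectin is a scaffold onto which cells and other matrix proteins assemble, through integrins on the cell surface. Fibulins and their partners guide the deposition of tropoelastin on microfibrils, where lysyl oxidases crosslink it into elastic fibres. Fibroblasts and other stromal cells are the usual source of these proteins, rather than the secretory acini of the salivary glands.

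Levels are in FPKM, by definition fragments per length of transcript and per fragments mapped in that library. Whether the deposited values were also rescaled between the libraries is not given in the sources used here. Levels of different genes within a library can be set side by side. The ratio of a gene was log2((estrus FPKM + 1)/(diestrus FPKM + 1)), in which the pseudocount of 1 FPKM understates the change of low genes. Genes with a mean of at least 1 FPKM over both libraries were counted, and a gene 2-fold or more apart on that scale was called higher or lower. On short loci the values fell into steps of whole fragments, where a single fragment over 1 kb counted 0.232 FPKM at estrus and 1.25 at diestrus. The estrus library was thus the more finely resolved by a factor of 5.38 on the steps among ratios, and 3 fragments per kb stood at 0.697 FPKM at estrus and 3.76 at diestrus. The sum of all FPKM was 1016100 at estrus and 521566 at diestrus, a difference left uncorrected except where a rescaling is stated.

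The labelled source was checked against cell markers. All 6 salivary acinar marker genes with a row (BPIFB1, LPO, PIGR, AQP5, CA6 and PIP) were listed at 0 in both libraries, and 6 endothelial markers summed to 0.0400 FPKM at estrus and 0.155 at diestrus. All 8 fibroblast markers were counted, summing to 5899 FPKM at estrus and 5574 at diestrus. Of 13 rows for oral squamous epithelium 8 were counted, of which 6 were lower in estrus, and 4 were at 0 in both libraries. Their sum of 30161 FPKM in estrus was nearly all KRT6A, against 1086 FPKM for the whole list in diestrus. In cell-free RNA marker levels do not count cells, and fewer source cells of a type and less RNA from each cannot be told apart. A listed 0 can also be a failed estimate and is not read as absence.

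Of the 10 members 9 were counted, and FBLN1, a fibulin of basement membranes and of fibronectin-rich matrix, was listed at 0 in both libraries. POSTN alone was at least 2-fold higher in estrus, ECM1 and THBS2 were at least 2-fold lower, and SPARC, THBS1, FN1, TNC, FBLN2 and FBLN5 lay within 2-fold. Among all 8269 counted genes 31.3% were at least 2-fold higher in estrus, 33.1% at least 2-fold lower and 35.5% between. The median log2 ratio of the 9 counted members was 0.11, beside -0.016 over all counted genes. In the authors' deposited table none of the 10 was called, and 6 of them had a p-value under 1. Among the 1253 genes with a p-value under 1, 3.91% had one under 0.05.

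**Figure D1:**
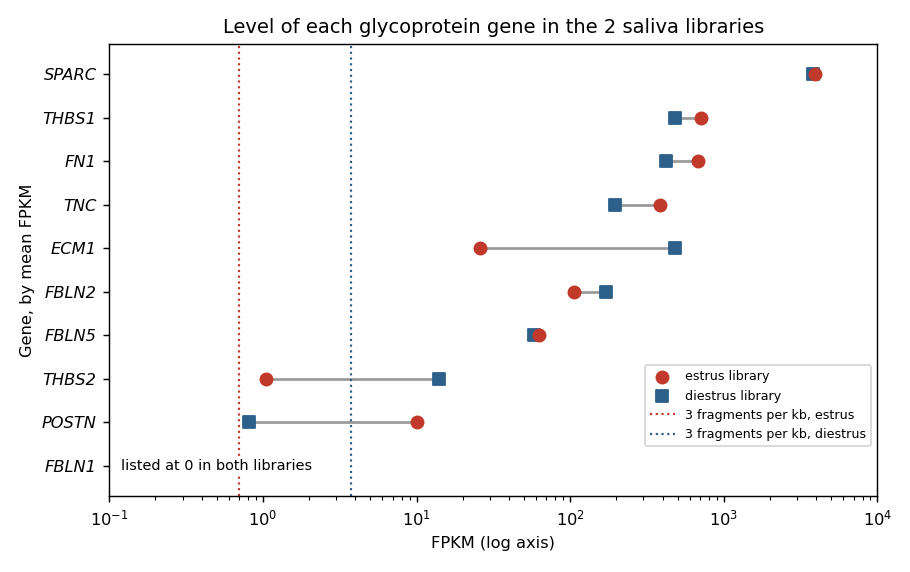
Level of each member in FPKM on a log axis, with circles for the estrus library, squares for the diestrus library and dotted lines at the level of 3 fragments per kb in each. SPARC stands at 3903 and 3815 FPKM, ECM1 at 26.0 and 479 FPKM, and the diestrus value of POSTN, 0.814 FPKM, is the only one left of its library's dotted line.

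SPARC, also called osteonectin, is a calcium- and collagen-binding protein that loosens cell adhesion and, in mice, is needed for normal collagen fibrils. Its locus lay on chromosome 7 (64878194 to 64900828), in the coordinates of the deposited table, for which the sources used here name no genome build. SPARC was at 3903 FPKM at estrus and 3815 at diestrus, rank 32 of 8424 and rank 14 of 9491 genes above 0. The log2 ratio was 0.03 in the deposited FPKM, and -0.35 with equal upper quartiles. SPARC held 66.3% of the summed FPKM of the 10 members in estrus and 67.7% in diestrus. The authors' deposited table gave SPARC a p-value of 0.592 and a q-value of 0.797.

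FN1 encodes fibronectin, which integrins on the cell surface stretch and assemble into fibrils. FN1, on chromosome 2 (103881402 to 103950562) and described in the table as a fragment, was at 680.1 FPKM at estrus and 418 at diestrus, with a log2 ratio of 0.70. The authors' deposited table gave FN1 a p-value of 0.418. TNC, tenascin C, is a large glycoprotein that weakens adhesion to fibronectin and is made at sites of remodelling. TNC, on chromosome 8 (105965498 to 106067887), was at 385 FPKM at estrus and 197 at diestrus. Its log2 ratio of 0.96 lay just under the 2-fold level, and its p-value in the authors' deposited table was 0.565. FN1 and TNC were both higher in the estrus library by less than 2-fold, and FN1 turned to lower when both libraries were scaled to the same sum.

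The thrombospondins did not move together. THBS1, a trimeric glycoprotein that can activate latent TGF-beta and binds the receptors CD36 and CD47, lay on chromosome 10 (35314025 to 35329297). THBS1 was at 712 FPKM at estrus and 479 at diestrus, with a log2 ratio of 0.57, with a p-value of 0.608 in the authors' deposited table. THBS2, a related trimer that inhibits vessel growth and lacks the TGF-beta activating sequence, lay on chromosome 9 (104735657 to 104760261). THBS2 was at 1.05 FPKM at estrus and 13.9 at diestrus, with a log2 ratio of -2.87 or 7.30-fold lower in estrus on the scale with the pseudocount. The level of THBS1 was thus 679 times that of THBS2 in the estrus library and 34.3 times in the diestrus library. THBS3 was at 0.157 and 0.786 FPKM and was not counted, and THBS4 and COMP were listed at 0 in both libraries.

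POSTN encodes periostin, which binds collagen and tenascin C and is abundant in the periodontal ligament. POSTN, on chromosome 12 (24241937 to 24276486), was at 10.02 FPKM at estrus and 0.814 at diestrus, with a log2 ratio of 2.60 or 6.08-fold. With fewer than 3 fragments per kb behind its diestrus value, the size of this ratio is uncertain. If the effective length was the same in both libraries, the FPKM values correspond to 66.2 fragments in estrus for each 1 in diestrus. That number includes the factor of 5.38 by which the estrus library was more finely resolved. SPARC, nearly equal in FPKM, had 5.50 by the same reckoning. TGFBI, the other fasciclin-domain protein counted, went the other way, at 0.119 FPKM at estrus and 3.70 at diestrus, with the diestrus value also under 3 fragments per kb. The authors' deposited table gave p-values of 1 for POSTN, THBS2, FBLN5 and FBLN1, which thus lie outside the 1253 genes with a p-value under 1.

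Among the fibulins, FBLN2, which binds fibronectin, elastin and basement membrane proteins, was at 107 FPKM at estrus and 170.5 at diestrus. The log2 ratio of FBLN2, on chromosome 22 (58990282 to 59038424), was -0.67, and its p-value in the authors' deposited table was 0.329. FBLN5, which in mice is needed to assemble elastic fibres, was at 62.6 FPKM at estrus and 58.0 at diestrus, with a log2 ratio of 0.11. FBLN5 lay on chromosome 21 (57153110 to 57246389). EFEMP2, another fibulin of elastic fibres, was as close between the libraries, at 43.5 FPKM at estrus and 42.9 at diestrus. EFEMP1 (0.991 against 2.52 FPKM) and the long adhesive protein gene HMCN1 (0.885 against 1.73 FPKM) were low in both, and FBLN7 was listed at 0 in estrus and 2.25 FPKM in diestrus. Of the 6 fibulin and hemicentin genes counted, 0 were higher, FBLN7 was lower and 5 lay between, with a median log2 ratio of -0.60, and with equal upper quartiles 3 were lower. The diestrus values of FBLN7, EFEMP1 and HMCN1 lay under 3 fragments per kb, so the call of FBLN7 rests on few fragments.

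ECM1, extracellular matrix protein 1, is made in skin and mucosa, binds perlecan and fibulins, and is the gene lost in human lipoid proteinosis. ECM1, on chromosome 3 (20228528 to 20233933), was at 26.0 FPKM at estrus and 479 at diestrus. The log2 ratio of -4.15, or 17.8-fold lower in estrus, was the largest in size among the members. Both values lay above 3 fragments per kb, and the authors' deposited table gave a p-value of 0.165 and a q-value of 0.797. ECM1 ranked 2215 of the genes above 0 in estrus and 164 in diestrus. Its neighbour TARS2, 517 bp away and the only other row within 5 kb of any member, was at 2.43 FPKM at estrus and 0.862 at diestrus.

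Of the 8 oral squamous markers counted 6 were lower in estrus, as was ECM1, while the list's sum, nearly all KRT6A in estrus, was higher there. PPL and DSP, at 1.96 and 2.24 FPKM in diestrus, were among the 6 and lay under 3 fragments per kb there. The epithelial keratins KRT14 (0.124 against 223 FPKM) and KRT15 (0.129 against 198 FPKM) were lower in the estrus library, SFN, an epithelial adaptor protein, was at 107 against 168 FPKM, and KRT6A was higher, at 30046.5 against 323 FPKM. The median log2 ratio of the 8 squamous markers counted was -2.14, and their part in the ECM1 value was not tested. Fibroblast markers had a median log2 ratio of 0.0092, with 2 of 8 higher, 1 lower and 5 between. Smooth muscle and myoepithelial markers, by contrast, summed to 12772 FPKM at estrus and 2457 at diestrus. Of these, 3 of 4 counted genes (ACTA2, TAGLN and CNN1) were past 2-fold towards estrus. DES, the other one counted, was at 4.76 against 5.17 FPKM, and MYH11 was listed at 0 in both libraries. The part of these markers in the higher values of TNC, FN1 and POSTN was not tested. Platelets, whose granules carry THBS1, SPARC and FN1 proteins, had 3 of 5 markers counted. PF4 was at 10.3 FPKM at estrus and 41.6 at diestrus, PPBP was listed at 0 and 43.9 FPKM, and GP1BB at 6.06 FPKM and 0. Of the other platelet markers ITGA2B was at 0 in estrus and 0.421 FPKM in diestrus, and GP9 was listed at 0 in both libraries. The platelet list summed to 16.4 FPKM at estrus and 85.9 at diestrus, and its part in the members' values was not tested. Of the leukocyte markers PTPRC, ITGB2, LYZ, S100A8 and CD3E were at 0 in both. The 3 counted leukocyte markers were all past 2-fold, with CD14 at 15.0 against 4.37 FPKM and CD68 at 4.36 against 1.12 FPKM towards estrus and S100A9 listed at 0 against 16.0 FPKM towards diestrus. The leukocyte list summed to 19.3 FPKM at estrus and 21.4 at diestrus.

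**Figure D2:**
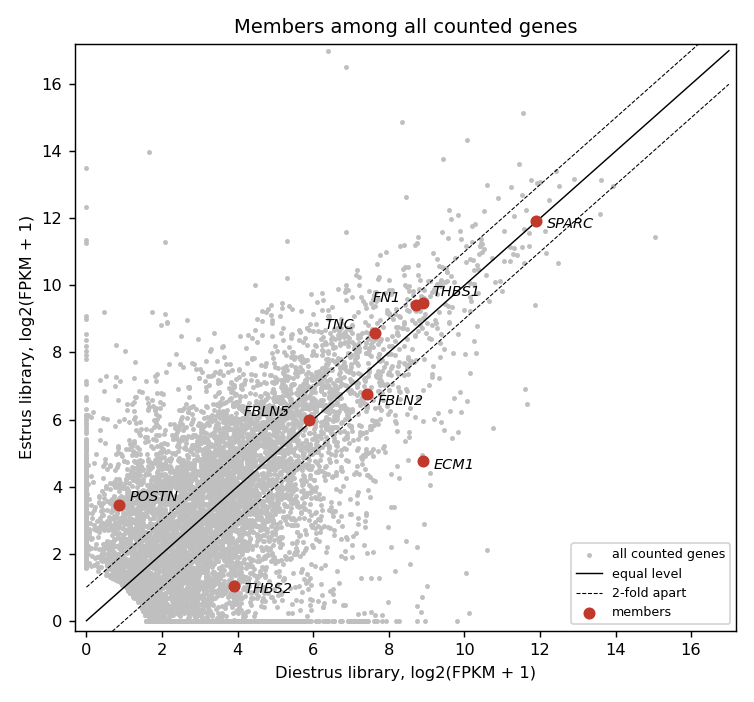
Each counted gene placed by log2(FPKM + 1) in the diestrus library (horizontal) and the estrus library (vertical), with the 9 counted members in red, a solid line at equal level and dashed lines at 2-fold. SPARC and FBLN5 lie on the line of equal level, while ECM1 and THBS2 lie below and POSTN above the dashed lines.

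The order of the members differed in few places. In estrus the levels ran SPARC, THBS1, FN1, TNC, FBLN2, FBLN5, ECM1, POSTN and THBS2 from high to low. In diestrus ECM1 stood second, level with THBS1 at 479 FPKM each, THBS2 stood above POSTN, and the other members kept their order. Without replicates it is not known which neighbours in these orders differ beyond the spread between animals.

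Ratios between members within a library do not depend on how the libraries were scaled. FN1 was 0.956 times THBS1 in estrus and 0.873 times in diestrus, so these genes kept nearly the same proportion. THBS1 was 1.85 times TNC in estrus and 2.43 times in diestrus. SPARC was 5.74 times FN1 in estrus and 9.13 times in diestrus, and 10.1 times TNC in estrus and 19.4 times in diestrus. SPARC thus stood lower against FN1 and TNC in the estrus library. SPARC to FBLN5 was 62.3 in estrus and 65.8 in diestrus. FBLN2 was 1.70 times FBLN5 in estrus and 2.94 times in diestrus, and FBLN5 was 2.41 times ECM1 in estrus and 0.121 times in diestrus.

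Abundant genes as a whole leaned towards estrus in the deposited FPKM. Among the 805 genes with a mean of at least 100 FPKM, 43.7% were at least 2-fold higher in estrus, 17.3% at least 2-fold lower and 39.0% between, with a median log2 ratio of 0.77. Of the 6 members at that level, SPARC, THBS1, FN1, TNC, FBLN2 and ECM1, 0 were at least 2-fold higher, ECM1 was lower and 5 lay between, with a median of 0.30. The direction of the small ratios turned with the scaling. Scaling both libraries to the same sum shifts every log2 ratio by -0.96 before the pseudocount. In this setting the log2 ratio of SPARC was -0.93, of FBLN5 -0.84, of THBS1 -0.39 and of FN1 -0.26, while TNC stood at 0.0026. FBLN2 was then at -1.63, past 2-fold. POSTN stayed higher in estrus, and ECM1, THBS2 and FBLN2 lower, under each scaling and pseudocount tried, with ECM1 between -5.11 and -3.77 and THBS2 between -3.77 and -1.12. Each scaling tried shifted the ratios towards diestrus, and a pseudocount cannot change a sign. The lower side of ECM1, THBS2 and FBLN2 was thus fixed in advance, and only their size could move. POSTN ranged from 0.89 with a pseudocount of 10 FPKM, which is within 2-fold, to 3.47 with 0.1 FPKM.

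**Figure D3:**
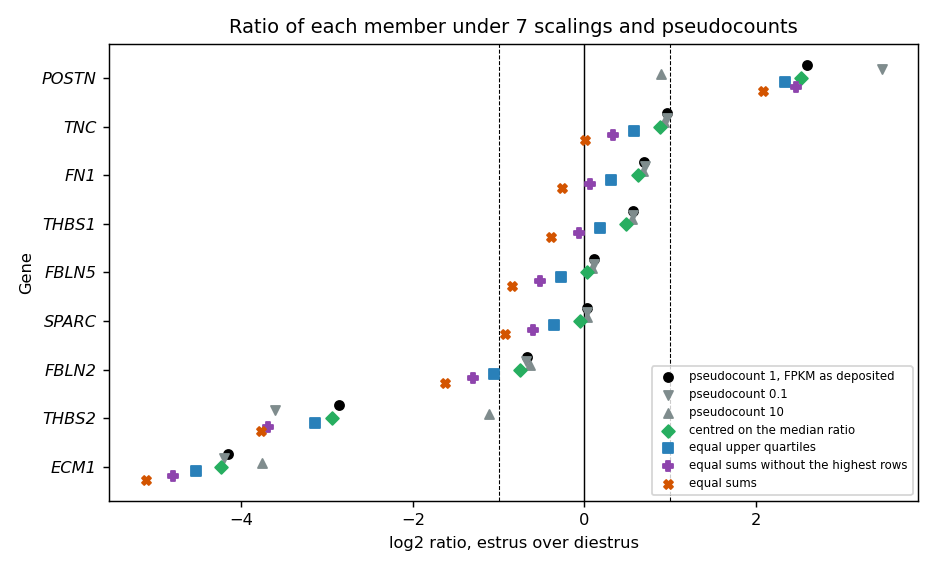
Log2 ratio of estrus over diestrus (horizontal) of the 9 counted members under 7 scalings and pseudocounts, 1 marker for each, with dashed lines at 2-fold. ECM1 and THBS2 stay left of the lower dashed line under all 7, whereas SPARC, FBLN5, THBS1 and FN1 have markers on both sides of 0.

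The genes nearest to a member in the plane of the 2 libraries were found by the distance of log2(FPKM + 1), a likeness over 2 values only. Among those nearest to SPARC, the member of highest mean, were the alpha-tubulin gene TUBA1B (3028 against 3339 FPKM) and the cytoskeletal actin gene ACTB (2329 against 3366 FPKM), at distances of 0.41 and 0.77. Nearest to ECM1 were CYP3A4 (29.7 against 469 FPKM), the proteasome subunit PSMB2 (26.6 against 362 FPKM) and the small heat shock protein HSPB8 (23.7 against 299 FPKM), at distances of 0.19, 0.41 and 0.69. Nearest to POSTN were MTMR11, TAF3 and SLC25A34, at distances from 0.058 to 0.096, in a crowded range of low values.

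Other genes of the same families and of elastic fibres were taken from lists chosen by function. In the SPARC family, FSTL1, a secreted follistatin-like glycoprotein, was at 221 FPKM at estrus and 360.3 at diestrus. SMOC2, a SPARC-related matrix protein, was at 76.5 against 1.09 FPKM, with the diestrus value under 3 fragments per kb, while its relative SMOC1 was at 10.9 against 44.3 FPKM. SPOCK1 was at 2.83 against 7.55 FPKM, and SPARCL1 and SPOCK2 were listed at 0 in both libraries. Of the 5 counted genes of that family 1 was higher, 2 were lower and 2 lay between. TNC was the only tenascin counted, since TNXB, TNN and TNR were listed at 0 in both libraries.

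Elastic-fibre genes stood on both sides. Of 14 counted core, microfibril and crosslinking genes 7 were past 2-fold towards estrus, 4 towards diestrus and 3 within it, and their median log2 ratio was 0.73. Of the 7 towards estrus, MFAP5 was listed at 0 in diestrus and LTBP1 (0.632 FPKM) lay under 3 fragments per kb there. Of the 4 towards diestrus, ELN and MFAP2, given below, were likewise under that level in estrus. The lysyl oxidase family, which crosslinks collagen and elastin, included LOXL2 at 500.1 against 443 FPKM, LOXL1, a partner of FBLN5, at 319.7 against 121 FPKM, and LOX at 29.8 against 93.7 FPKM. EMILIN2, an elastin-interface glycoprotein, was at 121 against 13.3 FPKM. ELN, which encodes elastin itself and was named after its values were seen, was at 0.0925 FPKM at estrus and 55.6 at diestrus, and the microfibril gene MFAP2, named likewise, was listed at 0 and 32.3 FPKM. In the deposited FPKM elastin and MFAP2 were thus lower in estrus, as was LOX, while FBLN5 and LOXL2 were within 2-fold and LOXL1 was higher.

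The CCN family is a further group of matricellular proteins. CTGF was at 1013 against 674 FPKM, CYR61 at 794 against 485 FPKM and WISP2 at 169.6 against 103 FPKM, all within 2-fold and on the same side as THBS1. Their log2 ratios of 0.59, 0.71 and 0.72 lay under the median of 0.77 over all genes with a mean of at least 100 FPKM. That side depends on the scaling, as THBS1 was at -0.39 with equal sums. NOV was lower in estrus, at 254 against 1257 FPKM. Among 7 other adhesive glycoproteins counted 2 were higher, 2 lower and 3 between. The galectin LGALS1, which binds glycans of fibronectin, was at 704 against 35.1 FPKM, and the integrin ligand SPP1, osteopontin, at 162 against 36.7 FPKM.

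**Figure D4:**
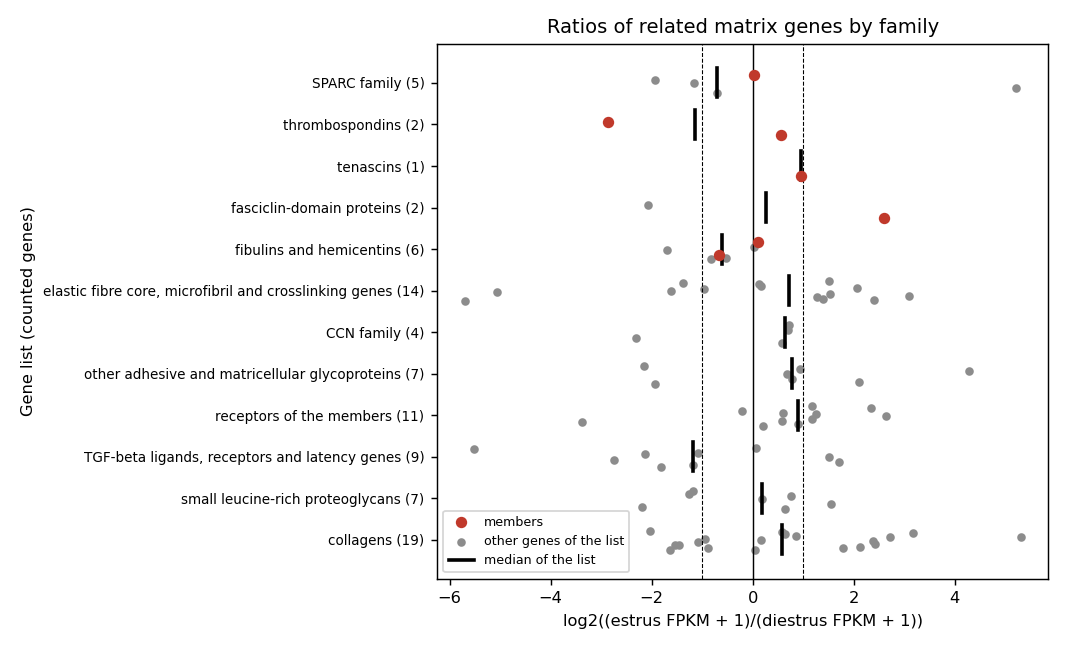
Log2 ratio (horizontal) of each counted gene of 12 lists of matrix, receptor and TGF-beta genes, with members in red, other genes in grey, a black bar at each list's median and dashed lines at 2-fold. The list medians run from -1.18 for TGF-beta genes to 0.96 for tenascins, of which only TNC was counted.

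Of 11 counted receptor genes of the members 5 were past 2-fold towards estrus, 1 towards diestrus and 5 within it, and their median log2 ratio was 0.90. With equal upper quartiles 2 of them were past 2-fold towards estrus. ITGA5, the alpha chain of the main fibronectin receptor, was at 812 FPKM at estrus and 129 at diestrus, with a log2 ratio of 2.65, while its partner chain ITGB1 was at 28.1 against 32.8 FPKM. The syndecan SDC1 was at 152 against 63.7 FPKM and LRP1, an endocytic receptor of thrombospondins, at 86.7 against 38.0 FPKM. CD44, a hyaluronan receptor, was at 207 against 137 FPKM. The thrombospondin receptors CD47 (64.6 against 42.7 FPKM) and CD36 (13.8 against 11.9 FPKM) lay within 2-fold, like THBS1. ITGAV, whose protein binds fibronectin and periostin, was listed at 0 in both libraries.

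The members were set beside the other main matrix genes. Of 19 counted collagens 7 were past 2-fold towards estrus, 5 towards diestrus and 7 within it, and their median log2 ratio was 0.57. Of the 7 towards estrus, COL12A1 and COL23A1 were listed at 0 in diestrus, and COL5A3 (0.647 FPKM) and COL18A1 (2.91 FPKM) lay under 3 fragments per kb there. Of the 5 towards diestrus, COL2A1 (0.443 FPKM) lay under that level in estrus. With equal upper quartiles 7 collagens were past 2-fold in each direction. Of 7 counted small leucine-rich proteoglycans, which bind collagen fibrils, 1 was higher, 3 were lower and 3 lay between, with a median of 0.18 that turned to -0.21 with equal upper quartiles. DCN, the 1 higher, was at 1274 against 436 FPKM, and FMOD, among the 3 lower, at 904 against 2039 FPKM. OGN, also among the 3 lower, was listed at 0 in estrus and 3.58 FPKM in diestrus, under 3 fragments per kb there. COL1A1 and COL1A2, which encode the chains of collagen I, were at 1630.4 against 3029 FPKM and at 1361 against 748 FPKM, and BGN, biglycan, at 2334 against 1369.7 FPKM. SPARC was above all of these in both libraries. Whether the members differ from these lists could not be tested with 1 library per stage.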

How the data were processed

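Saliva RNA was measured in 1 estrus and 1 diestrus library, grouped by the stage in the labels. Per the labels' protocols, library preparation used version 2 of the TruSeq RNA kit of Illumina. TopHat, Bowtie, Cufflinks and Cuffdiff are named in the submitters' processing notes, and versions, genome build and any rescaling between libraries are not given in the sources used here. For each gene and library the authors deposited an FPKM value, with a log2 fold change of diestrus over estrus, which matched the FPKM values within 0.001 on all 7344 genes above 0 in both libraries, and a test score. P-values and q-values were deposited by the authors and are given unaltered. The column of calls matched a p-value under 0.05 on all 20905 genes.

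Ratios, filters and thresholds are as given with the results, computed with Python 3.11.15, NumPy 2.4.6 and pandas 2.3.3. The step search and the 2-fold calls were run on simulated data with known lengths, which did not test the choice of the 184 bp below. Fragment steps were sought on loci of 400 to 3000 bp, with 184 bp taken off the length, as the step with the most loci within 0.5% of 1 to 3 fragments, which 40 loci met in estrus and 106 in diestrus. Transcript lengths were not used here, so no counts per gene were computed, and steps cover counting error only. Starts were read as counting from 0, since 127 of 138 olfactory receptor spans were then multiples of 3, and are printed counting from 1. All 10 members have a buffalo RefSeq symbol in assembly NDDB_SH_1. The members and lists were chosen with earlier results of these data known. Named genes were all members, up to 4 counted genes of highest mean from each list, every counted gene of the families that hold a member, and the 3 genes nearest to each of 3 members, of which 1 is not reported here; others serve as values at 0, receptors of a named member or a neighbour, or were named after their values were seen. Alternatives were other pseudocounts, scalings, filters and folds.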

Additional observations from a re-analysis of the deposited data

How the results depend on the processing

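No paired analysis was possible because each stage has 1 library, and leaving out a library would leave nothing to compare. No member called at 2-fold changed sign in the 79 recomputed member ratios. Filters and pseudocounts cannot change a sign, and every rescaling shifted ratios towards diestrus, so of these members only POSTN could have turned. The count of members at least 2-fold higher in estrus was 1 (POSTN) and became 0 with a pseudocount of 10 FPKM, 0 with the filter raised to 10 FPKM, which left out POSTN and THBS2, and 3 at 1.5-fold. The count of members at least 2-fold lower was 2 and became 1 with a mean of at least 10 FPKM, and 3 with equal sums, equal sums without the 5 highest rows of either library, equal upper quartiles or 1.5-fold. The members' median log2 ratio of 0.11 was -0.84 with equal sums, -0.52 with equal sums without the 5 highest rows of either library, -0.27 with equal upper quartiles, 0.029 when centred on the median of genes above 0 in both libraries, 0.095 with a pseudocount of 10 FPKM and 0.071 with no filter. The median of all counted genes moved likewise, to -0.87 with equal sums and -0.35 with equal upper quartiles. With equal upper quartiles 26.1% of counted genes were higher and 38.6% lower, and with equal sums 20.1% and 47.9%.

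With equal upper quartiles the list medians were -1.09 for the SPARC family, -1.48 for thrombospondins, 0.57 for tenascins, 0.046 for fasciclin-domain proteins, -0.90 for fibulins and hemicentins, 0.35 for elastic-fibre genes, 0.26 for the CCN family, 0.39 for other adhesive glycoproteins, 0.69 for receptors, -1.43 for TGF-beta genes, -0.21 for small leucine-rich proteoglycans and 0.19 for collagens. The fibulins then had 3 genes lower and the receptors 2 higher, the collagens 7 lower in place of 5, the SPARC family 3 lower in place of 2, and the elastic-fibre genes 6 higher and 5 lower in place of 7 and 4. No other list count changed with equal upper quartiles. With no filter, which adds genes at 0, the median was 0 for the SPARC family, thrombospondins, tenascins, fasciclin-domain proteins and collagens, -0.54 for fibulins and hemicentins, 0.17 for elastic-fibre genes, 0.29 for the CCN family, 0.31 for other adhesive glycoproteins, 0.12 for receptors, -1.08 for TGF-beta genes and 0.091 for small leucine-rich proteoglycans, which then had 2 genes higher. With no filter the small leucine-rich proteoglycans also had 4 genes lower, the elastic-fibre genes 8 higher and the collagens 7 lower. The other list counts stayed the same with no filter. Depth limits values under 3 fragments per kb, which among the members is the diestrus value of POSTN.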

Other observations

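Genes of TGF-beta signalling, the pathway that THBS1 can activate, comprised 9 counted genes, of which 6 were past 2-fold towards diestrus, 2 towards estrus and 1 within it, and the median log2 ratio of the list was -1.18. Over all 8269 counted genes 33.1% were at least 2-fold lower in estrus and 31.3% at least 2-fold higher. For 3 of the 6, TGFB2 (0.951 against 3.43 FPKM), TGFB3 (1.17 against 3.61 FPKM) and LRRC32 (0 against 2.53 FPKM), the diestrus value lay under 3 fragments per kb. TGFBR1, also among the 6, was listed at 0 in estrus and 5.66 FPKM in diestrus. SMAD7, an inhibitor of the pathway, was at 3.14 FPKM at estrus and 189.6 at diestrus, with a log2 ratio of -5.52. The ligand TGFB1 was at 26.9 against 8.85 FPKM and the shared mediator SMAD4 at 28.9 against 8.18 FPKM, both higher in estrus, and the receptor TGFBR2 at 14.9 against 14.3 FPKM. With 1 library per stage these values have no replicate check.

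THBS2 and SMOC2 lie 355 kb apart on chromosome 9 in the deposited table and stood on opposite sides, THBS2 at 1.05 against 13.9 FPKM and SMOC2 at 76.5 against 1.09 FPKM. This pair was picked out after its values were seen.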
